A study of Mus musculus with 6 samples.

Results

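Mast cells are tissue-resident immune cells that store proteases and histamine in granules and release them on stimulation, and the 10 genes described here are genes by which they are usually recognised. They were chosen as a named set, with results of these data known: the granule proteases Cpa3, Cma1, Mcpt4, Tpsb2 and Tpsab1, the receptor genes Kit, Fcer1a, Ms4a2 and Mrgprb1, and Hdc, which makes histamine. Every probe set annotated to one of them alone was taken, which gave 14 of the 45037 probe sets tested and 10 of 18193 genes. Expression was measured on 6 arrays, 3 of carotid body and 3 of adrenal medulla, from untreated adult C57/BL6 mice. Each carotid body sample pooled 18 organs and each adrenal medulla sample 10, in both cases from 10 mice, and the submitters state that arrays with the same number come from a shared cohort. The carotid body senses arterial oxygen at the fork of the carotid artery, and the adrenal medulla is the catecholamine-secreting core of the adrenal gland. Because the set was chosen with the contrast between these tissues known, its levels and differences are a description: no p is given for a member, and nothing is read from how many members met a threshold.

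As background, mouse mast cells of connective tissue hold chymases, tryptases and the metalloprotease carboxypeptidase A3, kept in the granule with heparin proteoglycan. Their surface carries Kit, the receptor for stem cell factor (Kitl), on which their survival depends, and the high-affinity receptor for IgE, built from an alpha chain (Fcer1a), a beta chain (Ms4a2) and a gamma chain shared with other leukocytes (Fcer1g). Crosslinking of that receptor triggers release of the granule content and the synthesis of eicosanoids.

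The promoters of the 3 proteases with the largest differences are shown because these genes were high on the same arrays and because GATA factors, Gata2 among them, are known regulators of mast cell genes. Each is the 250 bases before the RefSeq start site, build GRCm38.p6, read 5′ to 3′ on the gene's strand, which is the minus strand for all 3. Capitals mark a GATA element on either strand: AGATAA, the same ending in G, which is AGATAG, or the forms beginning with T, which are TGATAA and, ending in G, TGATAG. The windows are chr3:20242182-20242431, chr14:55944676-55944925 and chr14:56062311-56062560, in the order printed.
Cpa3: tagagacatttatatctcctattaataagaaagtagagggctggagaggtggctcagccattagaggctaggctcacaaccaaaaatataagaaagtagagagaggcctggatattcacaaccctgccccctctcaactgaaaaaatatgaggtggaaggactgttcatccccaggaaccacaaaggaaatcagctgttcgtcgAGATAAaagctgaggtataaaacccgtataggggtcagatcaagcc
Cma1: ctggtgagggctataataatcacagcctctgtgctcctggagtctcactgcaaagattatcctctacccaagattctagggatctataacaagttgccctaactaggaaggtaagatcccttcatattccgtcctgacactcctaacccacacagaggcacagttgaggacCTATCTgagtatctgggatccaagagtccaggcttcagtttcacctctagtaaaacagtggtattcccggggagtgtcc
Mcpt4: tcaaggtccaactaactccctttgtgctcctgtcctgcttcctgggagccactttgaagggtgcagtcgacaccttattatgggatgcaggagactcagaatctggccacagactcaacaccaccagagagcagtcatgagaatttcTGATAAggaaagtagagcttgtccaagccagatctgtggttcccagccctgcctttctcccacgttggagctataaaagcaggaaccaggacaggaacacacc
The match began 46 bases before the start in Cpa3, 79 in Cma1 and 103 in Mcpt4. Of the 8 members with a promoter in the RefSeq table, 7 held at least 1 such match, Hdc among them and Kit not. For comparison, 26.5% of the 32851 mouse promoter windows of that length held one. TATAAA on the gene's own strand was found in 3 members, Cpa3, Mcpt4 and Fcer1a, against 7.59% of all windows, and the E-box CATGTG, on either strand, in 1 member, Fcer1a, against 12.3%. These are matches of letters, not measured binding. Tpsb2 and Tpsab1 had no entry.

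The arrays as a whole were alike within a tissue, with correlations of 0.978 to 0.984 among carotid body and 0.991 to 0.995 among adrenal medulla arrays, against 0.938 to 0.951 between tissues. Values are log2 intensities from about 2.7 to 15, with a lower quartile of 3.89 to 4.03 and a median of 5.16 to 5.32 per array, so a probe set near 4 is dim and cannot be told from an unexpressed gene. Where one tissue lies at that level, as the adrenal pools do for Cpa3, Cma1, Mcpt4, Fcer1a, Ms4a2 and Mrgprb1, a fold is a lower bound and is written as at least that fold, and the difference and its SE are those of the measured intensities. Ms4a2 and Mrgprb1 were dim in the carotid body pools too, at 4.17 to 4.67. Carotid body array 1 stood apart in genes of steroid-producing cortex cells: their mean level was 9.67 there, 5.43 and 5.19 on the other carotid body arrays and 11.04 to 11.62 in adrenal medulla. Among them Star, which moves cholesterol into mitochondria, was at 12.06, 3.85 and 3.81 on carotid body arrays 1, 2 and 3. The chromaffin cell marker Pnmt was also higher on array 1, at 11.13, 7.65 and 8.08 on the same arrays. Dbh, another such marker, was at 10.20, 10.23 and 7.86, and did not set array 1 apart. Th, the rate-limiting enzyme of catecholamine synthesis, was bright in both tissues, at 11.69 ± 0.24 in carotid body and 13.50 ± 0.46 in the adrenal pools (log2, SD, n = 3). The Gapdh control probe sets gave a 3′ minus 5′ log2 difference, which grows as RNA degrades, of 0.59 to 1.45 in the carotid body pools and 0.13 to 0.61 in the adrenal pools. The X-linked transcript Xist was at 8.84 to 10.96 in the carotid body pools and 4.45 to 5.60 in the adrenal pools. Xist is made in female cells, so the pools of each cohort differed in a marker of sex. Pools with the same number are therefore not read as the same mice, and a difference by cohort is between pools, not within animals. The part of cortex RNA or RNA quality in the values below was not tested. Xist separated the tissues on every array, so the sex of the pools cannot be told apart from tissue.

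The carotid body pools held more RNA of 3 mast cell proteases, Cpa3, Cma1 and Mcpt4, with intensities at least 44.1-fold, 28.0-fold and 10.3-fold higher, and more of the IgE receptor alpha chain Fcer1a. Smaller differences in the same direction were seen for Kit, Tpsb2, Mrgprb1 and Ms4a2, while Tpsab1 and Hdc differed by 0.04 and -0.26 (log2). Taking the brightest probe set of each gene, 6 of the 10 met the call used here, an adjusted p under 0.05 and at least 2-fold (limma, adjusted over all probe sets), all higher in carotid body. Over all genes 12.0% met it and 5.91% did so toward carotid body; since the set was chosen on this contrast, nothing is read from the count. In 8 of the 10 genes all carotid body arrays lay above all adrenal medulla arrays, as in 17.8% of all genes. Ms4a2 is among them by a probe set that was the brighter one only through its carotid body values. The median difference, carotid body minus adrenal medulla, was 1.26 (log2) over the 10 genes and -0.04 over all genes. In pooled tissue, more mast cells and more of these transcripts per cell cannot be told apart.

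**Figure D1:**
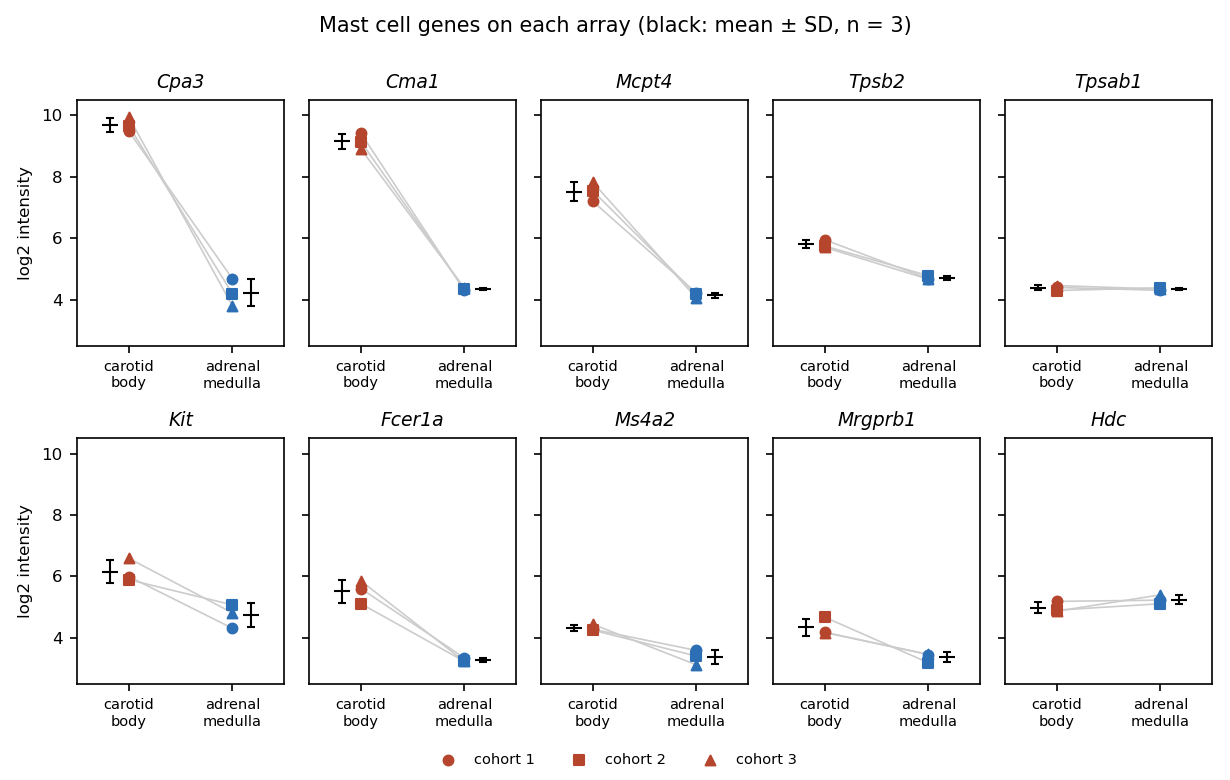
Log2 intensity of the brightest probe set of each of the 10 mast cell genes on the 3 carotid body and 3 adrenal medulla arrays. Symbols give the cohort, grey lines join arrays with the same cohort number, and black marks are the mean ± SD (n = 3). Cpa3, Cma1 and Mcpt4 lie at 7.20 to 9.94 in the carotid body pools and at 3.80 to 4.69 in the adrenal pools, while the tissues overlap in Tpsab1 and Hdc.

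Cpa3 encodes carboxypeptidase A3, an exopeptidase that trims peptides such as endothelin and snake toxins in the mast cell granule. Its log2 level was 9.48, 9.65 and 9.94 on carotid body arrays 1, 2 and 3 and 4.69, 4.20 and 3.80 on adrenal medulla arrays 1, 2 and 3. Every carotid body array was far above every adrenal medulla array, with the adrenal values at the dim end of the scale. The difference was 5.46 ± 0.23 (log2, SE), or at least 44.1-fold. Between arrays with the same cohort number it was 4.79, 5.45 and 6.14, a spread that includes that of the dim adrenal values.

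Cma1 encodes the chymase also called mast cell protease 5, which in the mouse is stored together with Cpa3. It was at 9.42, 9.14 and 8.90 in carotid body and at 4.31, 4.35 and 4.38 in the adrenal pools. The adrenal medulla arrays were nearly identical, with an SD of 0.04, and lay between the lower quartile and the median of all probe sets. The difference was 4.81 ± 0.15 (SE), or at least 28.0-fold, and 4.52 to 5.11 by cohort.

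Mcpt4, a chymase of connective tissue mast cells held to be the functional counterpart of human chymase, was at 7.20, 7.54 and 7.82 in carotid body and at 4.21, 4.18 and 4.06 in the adrenal pools. Again no array of one tissue reached the other. The difference was 3.37 ± 0.17 (SE), or at least 10.3-fold, and 2.98 to 3.76 by cohort. The order of the carotid body arrays was not shared by the proteases: Cpa3 and Mcpt4 were highest on array 3 and lowest on array 1, and Cma1 was highest on array 1 and lowest on array 3.

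The tryptases differed by less than these proteases or overlapped. Tpsb2, which encodes the tryptase called mast cell protease 6, was at 5.95, 5.74 and 5.70 in carotid body and at 4.69, 4.78 and 4.67 in the adrenal pools with its brighter probe set, a difference of 1.09 ± 0.12 (SE). Its dimmer probe set overlapped between the tissues, with 3.91 to 4.33 against 3.55 to 4.01 and a difference of 0.32 ± 0.17. With arrays centred on their medians the brighter probe set differed by 0.97 and with the mean of both by 0.70, below 2-fold in each case. Tpsab1, the gene of mast cell protease 7, was at 4.40, 4.30 and 4.46 in carotid body and at 4.30, 4.39 and 4.34 in the adrenal pools. These values overlapped fully, and the difference was 0.04 ± 0.11. RefSeq lists Tpsab1 of the C57BL/6J genome as a transcribed pseudogene, and the mice here were C57/BL6. The tryptases are close paralogues, and whether a probe set of one also takes up RNA of the other was not tested.

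**Figure D2:**
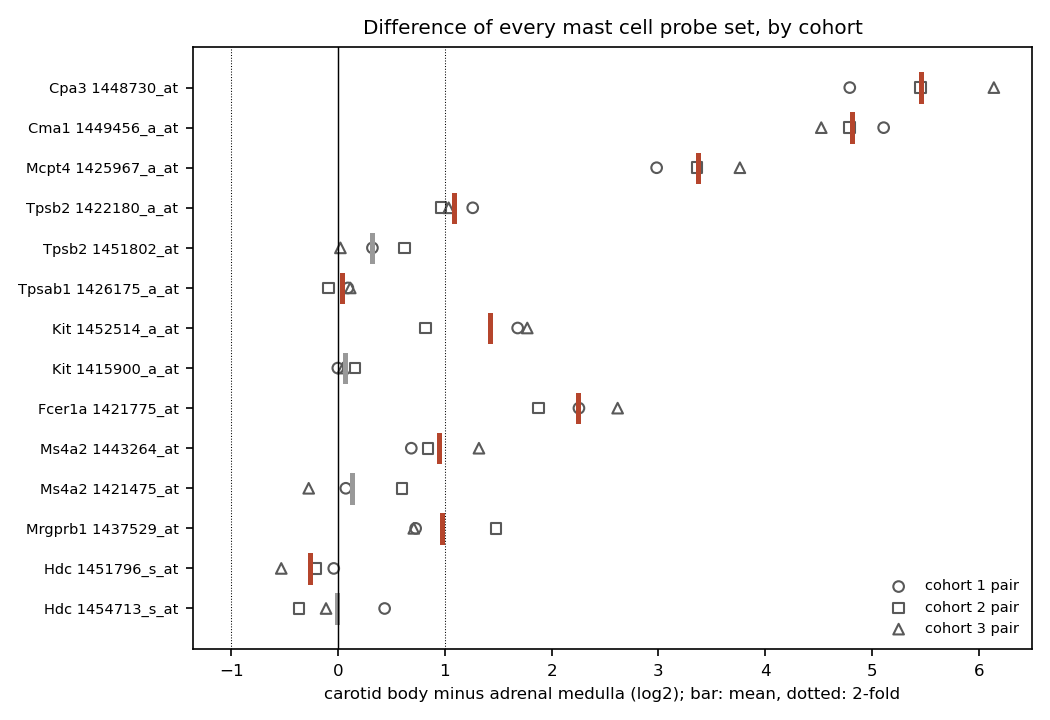
Carotid body minus adrenal medulla (log2) for all 14 mast cell probe sets. Open symbols are the pairs of arrays with the same cohort number and bars the mean, red for the probe set that stands for the gene and grey for its dimmer probe set; dotted lines mark 2-fold. Cpa3, Cma1, Mcpt4 and Fcer1a lie beyond 2-fold in every cohort, and in Kit, Ms4a2 and Tpsb2 the mean of the dimmer probe set is 0.07 to 0.32.

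Among the receptors, the alpha chain of the IgE receptor, Fcer1a, which binds IgE itself, showed the largest difference. It was at 5.60, 5.11 and 5.85 in carotid body and at 3.34, 3.23 and 3.23 in the adrenal pools. All adrenal medulla values lay below the lower quartile of their arrays, and no carotid body value came within 1.76 of them. The difference was 2.25 ± 0.19 (SE), or at least 4.76-fold.

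The beta chain, Ms4a2, which amplifies the signal of the receptor, was dim throughout. Its brighter probe set was at 4.27, 4.25 and 4.44 in carotid body and at 3.59, 3.40 and 3.12 in the adrenal pools, a measured difference of 0.95 ± 0.15 (SE), just under the 2-fold of the call. The groups did not overlap there, but in the other probe set they did, with 3.67 to 4.10 against 3.50 to 3.94 and a difference of 0.13 ± 0.16. The gamma chain gene Fcer1g, which macrophages and other leukocytes also express, was at 9.24 ± 0.19 in carotid body and 9.23 ± 0.10 in the adrenal pools (SD, n = 3; adjusted p = 0.943, limma).

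Kit, the receptor tyrosine kinase for stem cell factor, was at 5.99, 5.89 and 6.58 in carotid body and at 4.31, 5.07 and 4.81 in the adrenal pools with its brighter probe set. The tissues did not overlap, but the gap between the closest arrays was 0.82, and the spread was wide in both. The difference was 1.42 ± 0.25 (SE), from 0.82 in cohort 2 to 1.77 in cohort 3. The other Kit probe set lay at 3.59 to 3.78 on every array, and with the mean of both the difference was 0.75. Mrgprb1, a member of the Mas-related G protein-coupled receptors, some of which mediate mast cell activation without IgE, was at 4.18, 4.67 and 4.17 in carotid body and at 3.45, 3.19 and 3.46 in the adrenal pools. Both tissues were dim; the measured difference was 0.97 ± 0.17 (SE), and cohort 2 gave 1.48 against 0.71 and 0.73 in the others. Without cohort 2 it was 0.72.

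Hdc, histidine decarboxylase, the only enzyme that makes histamine, did not follow Cpa3, Cma1 and Mcpt4. It was at 5.18, 4.90 and 4.87 in carotid body and at 5.22, 5.11 and 5.40 in the adrenal pools, a difference of -0.26 ± 0.14 (SE). The groups overlapped, and by cohort the difference was -0.04, -0.21 and -0.53. The second probe set gave -0.01 ± 0.20, with 4.46 to 5.22 in the carotid body pools and 4.71 to 4.82 in the adrenal pools.

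Carotid body array 1 stood apart in cortex genes and in Pnmt. Without it the differences were 5.57 for Cpa3, 4.68 for Cma1, 3.53 for Mcpt4, 2.21 for Fcer1a, 1.51 for Kit, 1.01 for Tpsb2, 0.97 for Ms4a2, 0.03 for Tpsab1 and -0.36 for Hdc. Mrgprb1 was then at 1.05 and met the call, so that 7 members were called. Since the set was chosen on this contrast, nothing is read from that count.

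Related genes that were not members were read from 8 lists, and of the 85 measured 10 were higher in carotid body, 9 were higher in adrenal medulla and 66 were not called, with a median difference of 0.18 (log2). Over all genes 5.91% were called toward carotid body and 6.08% toward adrenal medulla. Without cohort 2 the number called was 13 in all. Of 6 other mast cell and basophil proteases none was called higher in carotid body by limma, 0 at an unadjusted p under 0.05, and the list's median was 0.10. Mcpt1 and Mcpt2, chymases typical of mucosal mast cells, were dim in both tissues, at 3.54 ± 0.10 and 3.87 ± 0.25 in carotid body and 3.44 ± 0.07 and 3.77 ± 0.21 in the adrenal pools (SD, n = 3). Mcpt8, a basophil protease, was at 4.06 ± 0.31 and 4.05 ± 0.21 (adjusted p = 0.966). The gene called, Gzmb, a granzyme of cytotoxic lymphocytes found in some mast cells, was higher in adrenal medulla by 3.01-fold, at -1.59 ± 0.22 (SE; adjusted p = 0.00225). Mcpt1 and Mcpt2 are named after their values were seen.

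Of 11 other receptor and surface genes 1 was called in each direction, with a median of 0.38. Csf2rb, the shared beta chain of the interleukin 3, interleukin 5 and GM-CSF receptors, was higher in carotid body by 1.26 ± 0.12 (SE; adjusted p = 0.000387), and by 0.82 with the mean of its probe sets. Ptger3, which responds to prostaglandin E, stood at 6.22 ± 0.66 in carotid body and 9.27 ± 0.28 in the adrenal pools (SD, n = 3), a difference of -3.05 ± 0.32 (adjusted p = 0.000612), though its other probe set gave -0.09. Il1rl1 and Mrgprb2 were not analysed here.

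Of 13 genes of the granule matrix and of monoamine storage, Tph1 was higher in carotid body and 3, Slc6a4, Gnptab and Hs6st1, were higher in the adrenal pools, with a median of -0.09. Tph1, the first enzyme of serotonin synthesis outside neurons and active in mouse mast cells, was at 5.71, 6.46 and 6.17 in carotid body and at 3.85, 3.55 and 3.50 in the adrenal pools, a difference of 2.48 ± 0.20 (SE; adjusted p = 0.000241), with the adrenal values again at the dim end of the scale. Slc6a4, the serotonin transporter, differed by -1.81 ± 0.29 (adjusted p = 0.00416), and without cohort 2 it was not called (adjusted p = 0.0695). Srgn, the core protein of the granule proteoglycan, which other leukocytes and endothelium also make, was bright in both tissues, at 12.04 ± 0.03 and 11.46 ± 0.10 (SD, n = 3), a difference of 0.59, under 2-fold (adjusted p = 0.00757). The vesicular monoamine transporter Slc18a2, used by mast cells for histamine and by chromaffin and glomus cells for catecholamines, differed by -0.67 ± 0.26 (adjusted p = 0.109). Gnptab, of lysosomal enzyme sorting, and Hs6st1, a heparan sulphate sulphotransferase, differed by -1.24 (adjusted p = 0.0037; 0.0837 without cohort 2) and by -1.23 (adjusted p = 0.0191). The Hs6st1 call was lost without carotid body array 2 or 3 or without adrenal medulla array 2 or 3, with differences of -0.95 to -1.26, and Hs6st1 was named after its values were seen.

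Histamine breakdown and receptor genes had 1 call among 7. Hrh1, the H1 receptor, was higher in adrenal medulla, with a difference of -1.70 ± 0.31 (SE; adjusted p = 0.0069); without cohort 2 or 3 the adjusted p was 0.0764 and 0.0514, and its other probe set gave -0.41. Hnmt, which inactivates histamine by methylation, was at 8.69 ± 0.34 in carotid body and 8.29 ± 0.18 in the adrenal pools (SD, n = 3; adjusted p = 0.178). Of 9 eicosanoid genes 2 were called higher in carotid body and none higher in adrenal medulla by limma (5 and 1 at an unadjusted p under 0.05), with a median of 0.60. Alox5ap, the helper protein of leukotriene synthesis, differed by 1.10 ± 0.11 (SE; adjusted p = 0.00061; 0.99 with median-centred arrays), and Pla2g4a, which frees arachidonic acid, by 1.15 ± 0.16 (adjusted p = 0.00237; 0.99 without cohort 3). Of 14 genes of IgE receptor and Kit signalling none was called by limma. At an unadjusted p under 0.05 there were 5 toward carotid body and 1 toward adrenal medulla. The brightest, Grb2 and Gab2, adaptor proteins, differed by -0.39 (limma, adjusted p = 0.0845) and 0.79 (adjusted p = 0.0323). With the mean of its probe sets Gab2 differed by 0.27.

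Transcription factors of mast cells went both ways, with 3 of 12 higher in each tissue. Gata2, needed for mast cell development and also active in sympathoadrenal cells, was higher in adrenal medulla, at 10.56, 11.02 and 11.11 against 9.61, 9.50 and 8.95 in carotid body, a difference of -1.54 ± 0.22 (SE; adjusted p = 0.00242; 0.0547 without cohort 2). Zfpm1, a GATA cofactor, differed by -1.21 ± 0.21 (adjusted p = 0.00548; -0.91 with the mean of its probe sets), and Runx1, a factor of blood cell formation, by 1.56 ± 0.20 (adjusted p = 0.00145; 0.59 with the mean of its probe sets). The other called members were Tal1 and Cebpa, at 1.12 and 1.06, and Stat5a at -1.11, all named after their values were seen. Tal1 and Stat5a fell below 2-fold without carotid body array 3, at 0.96 and -0.97. Cebpa had an adjusted p of 0.0622 to 0.148 without carotid body array 1 or 2 or any 1 of the adrenal medulla arrays. Mitf, the factor that drives many granule genes, was at 7.44 ± 0.19 in carotid body and 7.45 ± 0.19 in the adrenal pools (SD, n = 3; adjusted p = 0.985).

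Among the factors that feed or attract mast cells, 3 of 14 were higher in carotid body and none was called higher in adrenal medulla by limma (1 at an unadjusted p under 0.05). Kitl, the ligand of Kit, was at 11.43, 11.66 and 11.59 in carotid body and at 9.31, 8.68 and 8.37 in the adrenal pools. All carotid body arrays lay at least 2.13 above the highest adrenal medulla array. The difference was 2.78 ± 0.23 (SE; adjusted p = 0.000243), with 0.42 to 2.78 over its 4 probe sets. Cxcl12, a chemokine of stromal cells, differed by 2.64 ± 0.17 (adjusted p = 8.17e-05; 0.32 to 3.64 over 3 probe sets), and Edn1, which encodes endothelin, by 2.36 ± 0.27 (adjusted p = 0.000907). Without carotid body array 1 the differences were 2.84 for Kitl, 2.60 for Cxcl12 and 2.19 for Edn1.

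**Figure D3:**
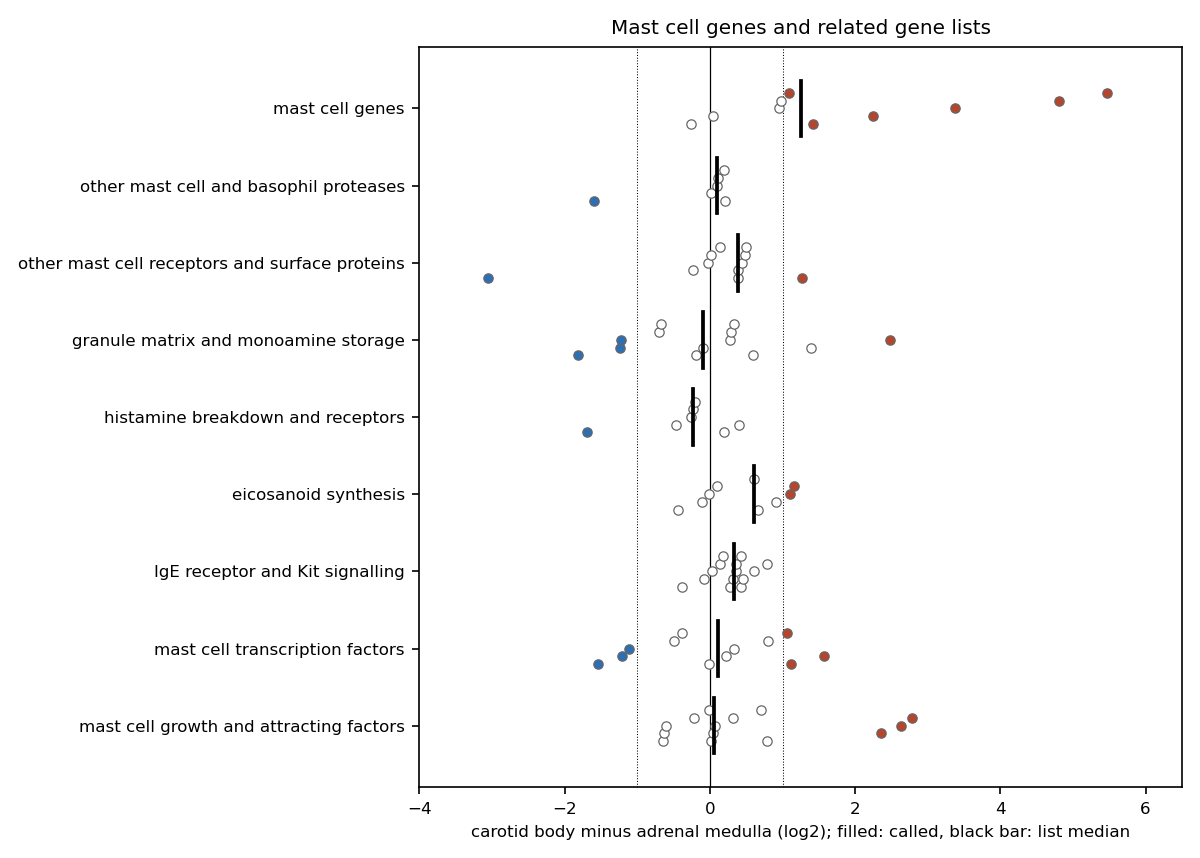
Carotid body minus adrenal medulla (log2) for each gene of the mast cell set and of the 8 related lists. Filled points met the call, red toward carotid body and blue toward adrenal medulla, and black bars are list medians. The 3 proteases lie beyond 3 in the mast cell row, where the median is 1.26, while the medians of the other lists lie between -0.23 and 0.60.

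Markers of other cells that express some of the same genes are given beside these values. Of 12 basophil, eosinophil and platelet markers 1 was higher in carotid body, Pf4, a platelet and macrophage chemokine, at 2.44 ± 0.16 (SE; adjusted p = 8.34e-05), and the list's mean level was 4.66 to 4.83 in the carotid body pools and 4.29 to 4.40 in the adrenal pools. Of 19 macrophage and leukocyte markers 3 were higher, Cd163 at 2.72, Mrc1 at 1.66 and Csf1r at 1.48 (0.52 to 1.48 over its 3 probe sets). The list mean was 6.46 to 6.70 against 6.09 to 6.30. The pan-leukocyte gene Ptprc differed by 0.42 ± 0.14 (adjusted p = 0.0663). Melanocytes also use Kit: of 9 of their markers 1 was higher, Sox10, which glia share, at 2.02 (0.91 with the mean of its probe sets), and the list mean was 5.49 to 5.67 against 5.17 to 5.36. Of 3 markers of Kit-bearing interstitial cells 1 was higher, Thbs4 at 2.08, with a list mean of 7.38 to 7.67 against 6.10 to 6.58.

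Connective tissue markers were higher in carotid body, as Cpa3, Cma1 and Mcpt4 were. All 10 fibroblast and matrix markers were higher in carotid body, with a median of 3.06 and a list mean of 11.47 to 11.58 against 8.34 to 8.52. Mfap5 differed by 5.47, Pi16 by 3.89 (0.51 with its other probe set) and Col1a1 by 3.30. Of 10 smooth muscle and endothelial markers 7 were higher, with a median of 2.25 and a list mean of 9.63 to 9.75 against 7.53 to 7.63. In adrenal medulla 10 of 12 cortex genes were higher, with a median of -4.26, and of 12 chromaffin and glomus cell markers 7 were higher in the adrenal pools and 4, Olfr78, Rgs4, Epas1 and Cox4i2, in carotid body (the last 3 named after their values were seen), with list means of 10.92 to 11.07 in the carotid body pools and 10.99 to 11.45 in the adrenal pools. Of 6 fat cell markers none was called by limma, 0 at an unadjusted p under 0.05, with list means of 7.08 to 8.31 and 6.74 to 8.17. The mean level of the 10 mast cell genes was 6.12 to 6.27 in the carotid body pools and 4.13 to 4.21 in the adrenal pools. The part of these tissue differences in the values of the mast cell genes was not tested.

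**Figure D4:**
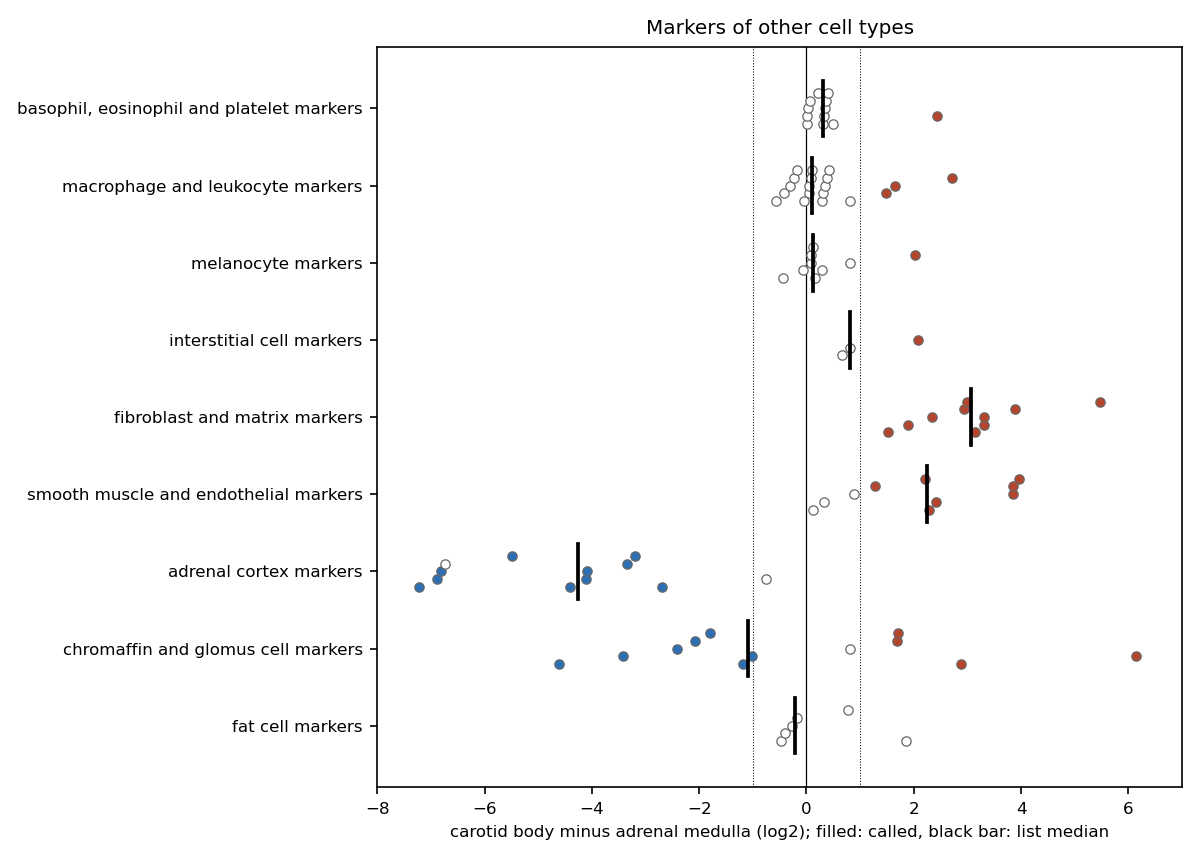
Carotid body minus adrenal medulla (log2) for markers of other cell types, with the same symbols as for the related lists. All 10 fibroblast and matrix markers are filled and above 1.52, and the leukocyte, platelet and melanocyte lists have medians of 0.09 to 0.32.

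The genes nearest in pattern to the 5 proteases were found by the distance, over the 6 arrays, between mean-centred log2 values and the mean of the proteases. Of 18183 genes compared, the nearest were Art3 at 0.24, Igfbp3 at 0.24, Vim at 0.32, Lrrc17 at 0.33 and Ablim1 at 0.37. Mcpt4 itself lay at 0.64, Cma1 at 2.32, Tpsb2 at 2.30, Cpa3 at 3.12 and Tpsab1 at 3.57 from that mean, since the proteases differ so much in size of difference. Igfbp3, a binding protein of insulin-like growth factors, was at 12.60 ± 0.05 in carotid body and 9.51 ± 0.19 in the adrenal pools, and Vim, the intermediate filament of mesenchymal cells, at 13.32 ± 0.13 and 10.41 ± 0.13 (SD, n = 3). Likeness over 6 arrays in 2 tissues is mostly the size of the tissue difference, which these genes had at 2.84 to 3.10.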

How the data were processed

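Levels were read from 1 table of 6 arrays, 3 per tissue, with every sample a pool. The authors deposited 1 log2 intensity per probe set and array, and the submitters' processing notes name Affymetrix Expression Console. Its version and how values were summarised and normalized: not given in the sources used here. No further normalization was applied. No detection calls were available, so a dim probe set could not be told from an unexpressed gene. Differences at dim probe sets can be smaller than the true ones. Precision is limited by the number of arrays.

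Of 45101 probe sets, 64 controls were left out. Gene names were those of the 2016 platform annotation, in which 34945 had 1 symbol, 932 several and 9160 none. Gene IDs of all 10 members matched RefSeq GRCm38.p6. The brightest probe set over the 6 arrays stood for a gene. The fit was lmFit with eBayes, without a block (limma 3.58.1, R 4.3.3), two-sided, with Benjamini-Hochberg adjustment over 45037 probe sets; a call needed an adjusted p under 0.05 and 2-fold. The fit was tested on simulated data.

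The members and lists were chosen with earlier results of these data known. Besides the members, the text names the 3 largest called differences of a list, or its 2 brightest genes where none was called, the 5 nearest in pattern and a fixed set (Fcer1g, Il1rl1, Mrgprb2, Srgn, Slc18a2, Hnmt, Kitl, Gata2, Mitf, Mcpt8, Ptprc, Star, Th), where measured; other names are said to be chosen later, and markers outside the main groups are given by list. Pairing rests on the series' statement that numbers mark cohorts; deviations of same-numbered samples correlated at 0.22, 0.08 and 0.16, and of others at -0.21 to 0.10, so cohort 2 did not exceed every mismatched pair. Alternatives were the cohort as a block, quantile normalization, median centring, an intensity trend with robust variances, removal of dim probe sets, the mean of a gene's probe sets, and leaving out each array or cohort. The pseudocount planned in case of linear values was not needed.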

Additional observations from a re-analysis of the deposited data

How the results depend on the processing

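Each result was recomputed under 15 alternatives, or 14 where a dim gene dropped out or only probe sets were counted. The number of members called was 6 as reported, 4 when a gene's probe sets were averaged (Cpa3, Cma1, Mcpt4 and Fcer1a), 4 of the 4 members left when dim probe sets were removed, 5 with arrays centred on their medians (without Tpsb2) and 6 to 8 when an array or cohort was left out, all higher in carotid body. The dim filter used the mean over all 6 arrays. Cpa3, Cma1, Mcpt4 and Kit had adrenal means of 4.15 to 4.73, below the median of every array. They were kept by their carotid body levels, so that count is no test of their calls. As reported, 12.0% of all genes met the call, and that share under each alternative is not given here. Since the set was chosen on this contrast, nothing is read from these counts. Mrgprb1 joined the calls when array 1 or 3 of either tissue, or both arrays of cohort 1 or 3, were left out, Ms4a2 joined without adrenal medulla array 1 or cohort 1, and Tpsb2 left without cohort 1, at 1.00 (log2). With the cohort as a replicate block 6 members were called and the count of related genes called stayed at 19, so the block changed no call of a member. Leaving out arrays or cohorts moved that count of related genes to between 13 and 19, and the count of probe sets called from 4744 to between 2578 and 5524, the lowest without cohort 2. Cpa3 ranged from 5.12 to 5.80 over all alternatives, Cma1 from 4.66 to 4.95, Mcpt4 from 3.17 to 3.56 and Fcer1a from 2.07 to 2.46. Tpsab1 changed sign, to -0.07 with quantile normalization and -0.08 with median centring, and had no call in either direction. Centring shifted the median over all probe sets by -0.11 (log2) and the share of called probe sets higher in carotid body from 56.5% to 46.0%. Of 807 recomputed differences of other named genes 51 lost their call and 19 changed sign, 0 of these among genes called as reported; the cause was not tested. The sign changes were in 4 uncalled genes: Fcer1g (-0.10 with median centring, -0.066 to 0.13 over the arrays or cohorts left out), Mcpt8 (-0.070 with quantile normalization, -0.10 with median centring, -0.16 to 0.16 over those left out), Mitf (0.13 with quantile normalization, -0.21 to 0.11 over those left out) and the fat cell marker Fabp4 (-0.26 as reported, -0.58 to 0.048 over those left out). Star lost its call without any single array other than carotid body array 1 (adjusted p at most 0.122). Signal near the floor limits every member with dim adrenal values, Cpa3, Cma1, Mcpt4, Fcer1a, Ms4a2 and Mrgprb1, for which a true difference could be larger than the one measured. Ms4a2, Mrgprb1, Tpsab1 and the dimmer Kit probe set were dim in both tissues, so their signal in either could not be told from that of an unexpressed gene.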
